A study of Mus with 15 samples.

Results

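Monoubiquitination of histone H2A on a lysine of its C-terminal tail (H2AK119ub, shortened to H2Aub) was examined over 10 genes of the T-box family, namely Tbx1, Tbx2, Tbx3, Tbx4, Tbx5, Tbx15, Tbx18, Tbx20, Tbr1 and Eomes, out of 21887 protein-coding genes of the mouse annotation. For each gene, the peaks of 11 H2Aub peak lists were collected over a window of the gene body plus 5 kb on each side (mm10), and the bases under peaks (covered length), the widest peak and the number of peaks were read from it. The lists came from microdissected mouse thalamus, profiled by ChIPmentation, a chromatin immunoprecipitation whose sequencing adapters are added by a transposase before the chromatin leaves the beads. Mice aged 2 to 4 months were given saline on 3 days and then, on 5 days, either saline again or cocaine at 20 mg/kg by intraperitoneal injection. The WT libraries, whose genotype label reads Maged1 Loxp, were compared with Maged1-cKO libraries, in which the floxed Maged1 gene had been deleted by Cre under the vGluT2 promoter, so only in cells that use or used that promoter. Of WT mice there were 3 libraries after cocaine and 3 after saline, and of cKO mice 2 after cocaine and 3 after saline. Each was made of pooled tissue, from 3 to 4 thalami per the labels, with a lower minimum stated in the study's methods, which describe hemizygous males. The lists hold no expression values, so neither the loss of Maged1 nor the tissue could be checked from marker genes.

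T-box genes encode transcription factors that bind DNA through a shared T-box domain and set cell identity in the embryo, in the heart, the limbs, the pharyngeal region, the mesoderm and the cerebral cortex. In cells that do not use them, developmental regulators of this kind are classical targets of Polycomb. Polycomb repressive complex 1 attaches the single ubiquitin to H2A, and the mark is linked to transcriptional repression and often spreads over such genes as a broad domain.

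All 10 genes carried H2Aub peaks in all 11 libraries, in both genotypes and after both treatments. A peak in each of the 11 libraries was found for 6.76% of the protein-coding genes, and for 6.31% of the 12955 genes with windows between 17.947 and 123.913 kb, the range of the T-box windows. By the rule of a peak in at least 2 libraries of a group, the 10 genes were H2Aub+ in each of the 4 groups. When each list was cut to the same number of peaks, 34 of these 40 calls remained. In WT mice the rule was met by 22.8% of all protein-coding genes after cocaine and 17.8% after saline. In cKO mice these shares were 20.7% and 18.7%. The median over the 10 genes of the mean covered length was 10526 bp, against 2771 bp over the 1479 genes with a peak in every library.

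The family did not carry the mark evenly, as the colours of the T-box heat map show. Of 7 further T-box genes, Tbxt (Brachyury, the mesoderm regulator of the primitive streak) and Tbx21 (T-bet, of T helper lymphocytes) also had a peak in all 11 libraries, but over shorter lengths. Their covered length was 943 to 5395 bp for Tbxt and 1147 to 5837 bp for Tbx21. Tbx19 (Tpit, of pituitary corticotrophs) had a peak in 7 libraries, Tbx10 in 4 and Tbx6, a regulator of presomitic mesoderm, in 1. Tbx22, a palate gene, and Mga, which encodes a partner of Max, had none in any list.

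**Figure D1:**
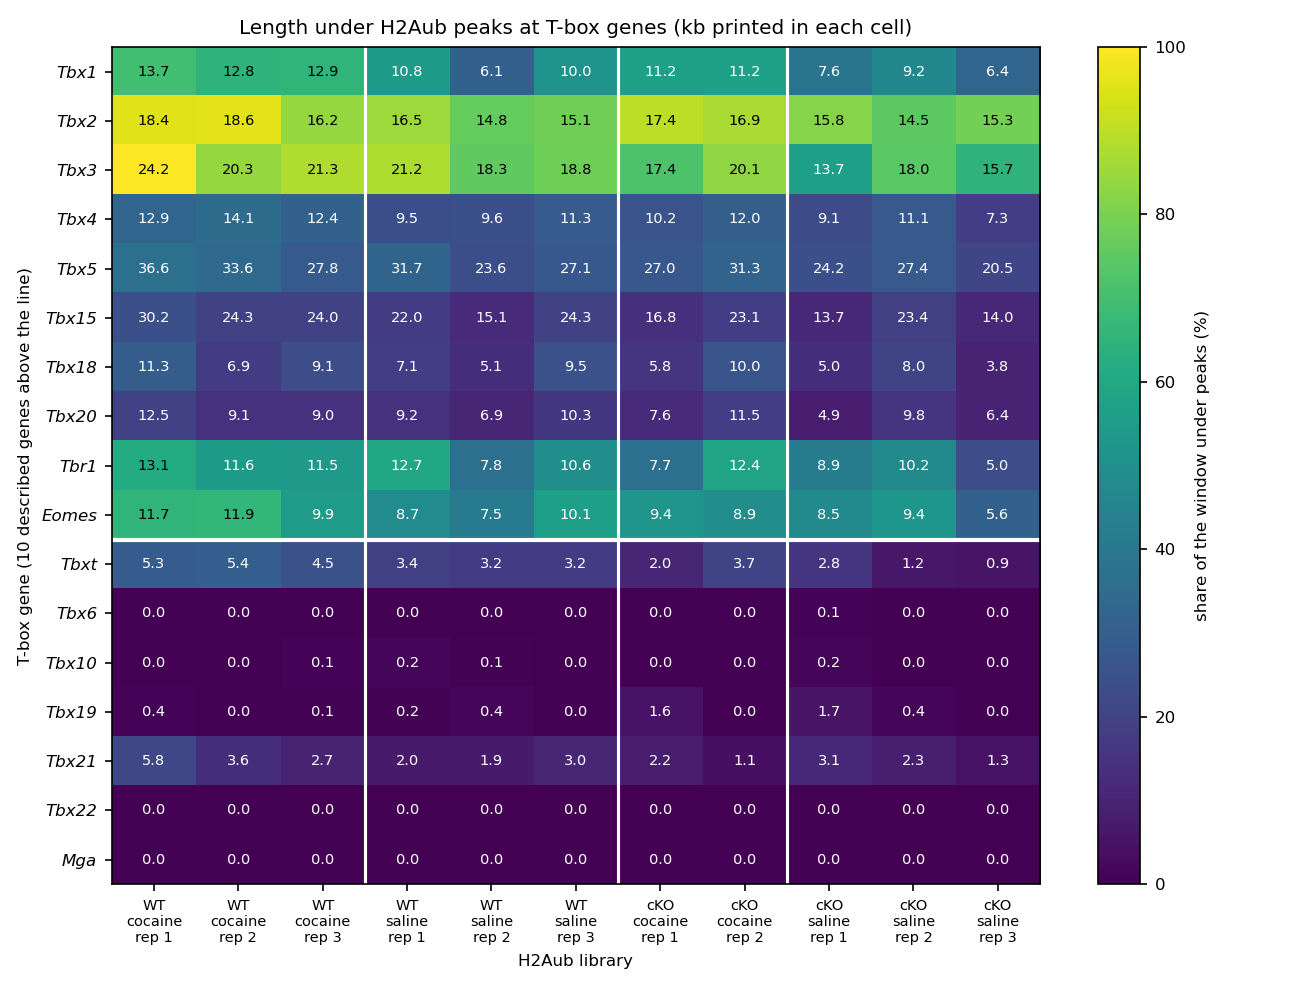
Covered length at 17 T-box genes (rows) in the 11 H2Aub libraries (columns), with the covered length in kb printed in each cell and the share of the window under peaks as colour (0 to 100%). The 10 described genes lie above the white line and are covered in all 11 columns, Tbx2 and Tbx3 over most of their windows. Of the 7 genes below it, Tbxt and Tbx21 are covered in all columns, Tbx6, Tbx10 and Tbx19 in some, and Tbx22 and Mga in none.

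Among all protein-coding genes ranked by mean covered length, the 10 genes took places between 6 and 253. Tbx5, which patterns the forelimb and the heart, was at rank 6 with a mean of 28271 bp. Tbx15, a regulator of skeletal and muscle development, was at rank 15 with 20979 bp, Tbx3 at rank 19 with 19005 bp and Tbx2 at rank 32 with 16313 bp. Tbx2 and Tbx3 are close relatives that encode transcriptional repressors of heart and limb development. The others lay close together, with Tbx4, of the hindlimb and lung, at rank 133, Tbx1, of the pharyngeal arches, at 163 and Tbr1, of deep-layer cortical neurons, at 164. Eomes (Tbr2, of cortical intermediate progenitors) was at rank 185, Tbx20, of the heart, at 199 and Tbx18, of the epicardium and sinoatrial node, at 253. Longer windows can hold more covered bases, so the ranks do not compare the genes per length.

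**Figure D2:**
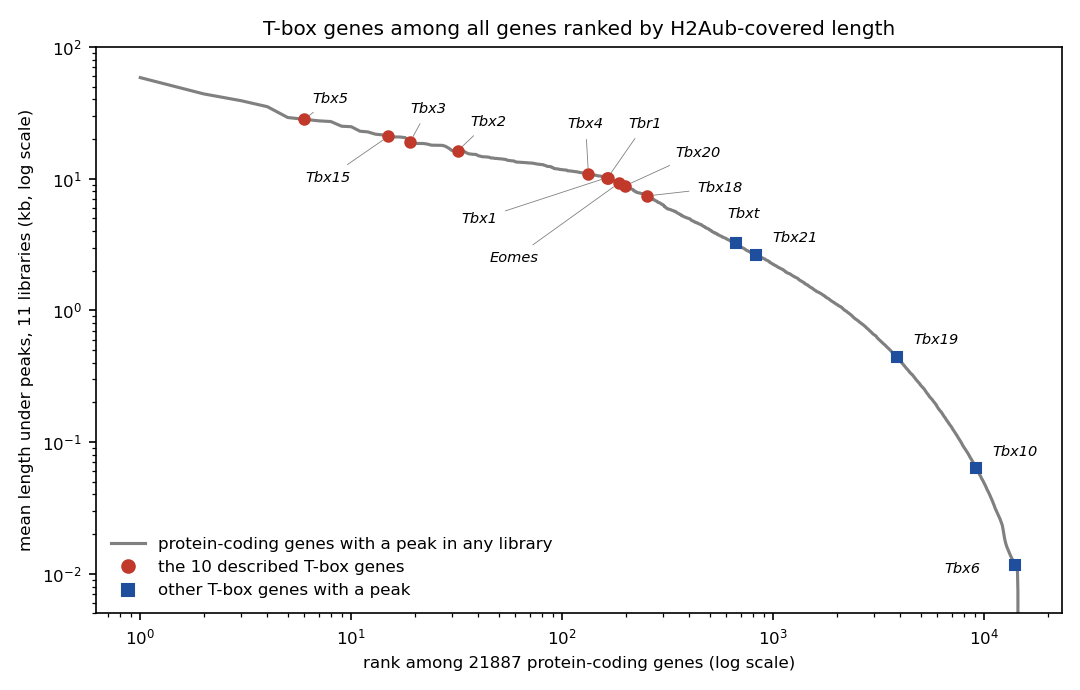
Mean covered length over the 11 libraries (kb, log scale) against rank among 21887 protein-coding genes (log scale), with the grey line giving the genes that had any peak. The 10 described T-box genes (red circles) lie between ranks 6 and 253, and the other T-box genes with a peak (blue squares) start at rank 663 with Tbxt.

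Per length, the order was different. The mean share of the window under peaks over the 11 libraries was 84.4% ± 7.19 (SD) for Tbx2 and 78.6% ± 11.95 for Tbx3, then 51.7% ± 13.2 for Tbx1, 51.4% ± 9.96 for Eomes and 47.7% ± 11.9 for Tbr1. It was 28.6% ± 4.78 for Tbx5, 27.3% ± 4.91 for Tbx4, 19.2% ± 6.22 for Tbx18, 16.9% ± 4.29 for Tbx15 and 13.9% ± 3.54 for Tbx20. The ranges of neighbours in this order overlapped in every case. Within the same library, however, Tbx3 was above Tbx1, Tbr1 above Tbx5, Tbx4 above Tbx18 and Tbx15 above Tbx20 in 11 of 11 libraries. Tbx2 was above Tbx3 in 8 of 11, Eomes above Tbr1 and Tbx18 above Tbx15 in 9, and Tbx1 above Eomes and Tbx5 above Tbx4 in 6, so the last of these pairs were not set apart by their spread. The median share over the 10 genes was 38.2%, against 7.33% over the 1479 genes with a peak in every library.

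The peaks formed broad domains, which were described by the bases covered in at least 6 of the 11 libraries, a majority. Since the annotation table used here gives no strand, gene ends are called the lower-coordinate and the higher-coordinate end. At the 5 genes with short bodies, between 7.947 and 14.191 kb (Tbx1, Tbx2, Tbx3, Tbr1 and Eomes), majority bases lay within 2 kb of both gene ends. At the 5 longer genes, with bodies of 28.461 to 113.913 kb (Tbx4, Tbx5, Tbx15, Tbx18 and Tbx20), they lay at 1 end only, and the 2 kb on each side of the other end had none.

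Tbx2 (chr11:85832615-85841948) was covered nearly from end to end. A single stretch of 15761 bp (chr11:85828834-85844594) was covered in at least 6 libraries, all of the gene body was, and 57.3% of the window was covered in all 11 libraries. At its relative Tbx3 (chr5:119670534-119684724) the majority bases made up 88.5% of the window and 92.3% of the 5 kb before the lower-coordinate end. The longest stretch, of 10073 bp (chr5:119666551-119676623), ran from this flank into the gene body and overlapped the end of the long non-coding RNA gene Tbx3os1. In the library WT cocaine replicate 1, 1 peak of 35582 bp covered the whole Tbx3 window.

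At Tbx1 (chr16:18580979-18590671), 98.7% of the gene body was under majority bases. Only 8.92% of the window was covered in all 11 libraries, and in 4 of them the covered length of the whole window was below the length of the body. Tbr1 (chr2:61802863-61814114) had 80.8% of its body under majority bases, 35.7% of the higher-coordinate flank and none of the lower-coordinate flank, on the side of its neighbour Psmd14. Eomes (chr9:118478186-118486132) carried a pair of domains. The first, of 6383 bp (chr9:118474874-118481256), spanned the lower-coordinate end, and the other lay beyond the higher-coordinate end, where 68.4% of the flank was covered and the long non-coding RNA gene Gm33460 lies, while of 3 equal parts of the gene body the middle one was covered over 15.9% and the upper one over 0%.

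At the longer genes the domain took up a small part of the body. Tbx15 (chr3:99240348-99354260) carried it over the lower-coordinate end, with 100% of the 4 kb around this end, 49.1% of the lowest of 3 equal parts of the body and 0% of the other parts. Tbx4 (chr11:85886367-85916097) carried it in the lowest of these parts as well, of which 95.4% was covered, with a longest stretch of 8688 bp (chr11:85887844-85896531). Tbx18 (chr9:87702800-87731260) and Tbx20 (chr9:24720812-24774303) showed the mirror image, with 100% and 93.9% of the bases around the higher-coordinate end covered and none around the other. Tbx5 (chr5:119796514-119885220) had a domain around the lower-coordinate end and a further one of 11709 bp inside the gene (chr5:119829249-119840957), which started 32.7 kb from that end. Both domains of Tbx5 ran into the region of the long non-coding RNA gene Gm5563, and the lower domain of Eomes into Gm33408. Majority bases also overlapped 2610027K06Rik at Tbx2, Tbx3os1 and Tbx3os2 at Tbx3, Gm38468 and Gm46817 at Tbx15, and Gm29824 at Tbx20. For these long non-coding RNA genes, and for Gm33460 at Eomes and Gm35369 at Tbx1, the peak lists cannot assign shared bases to either gene.

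**Figure D3:**
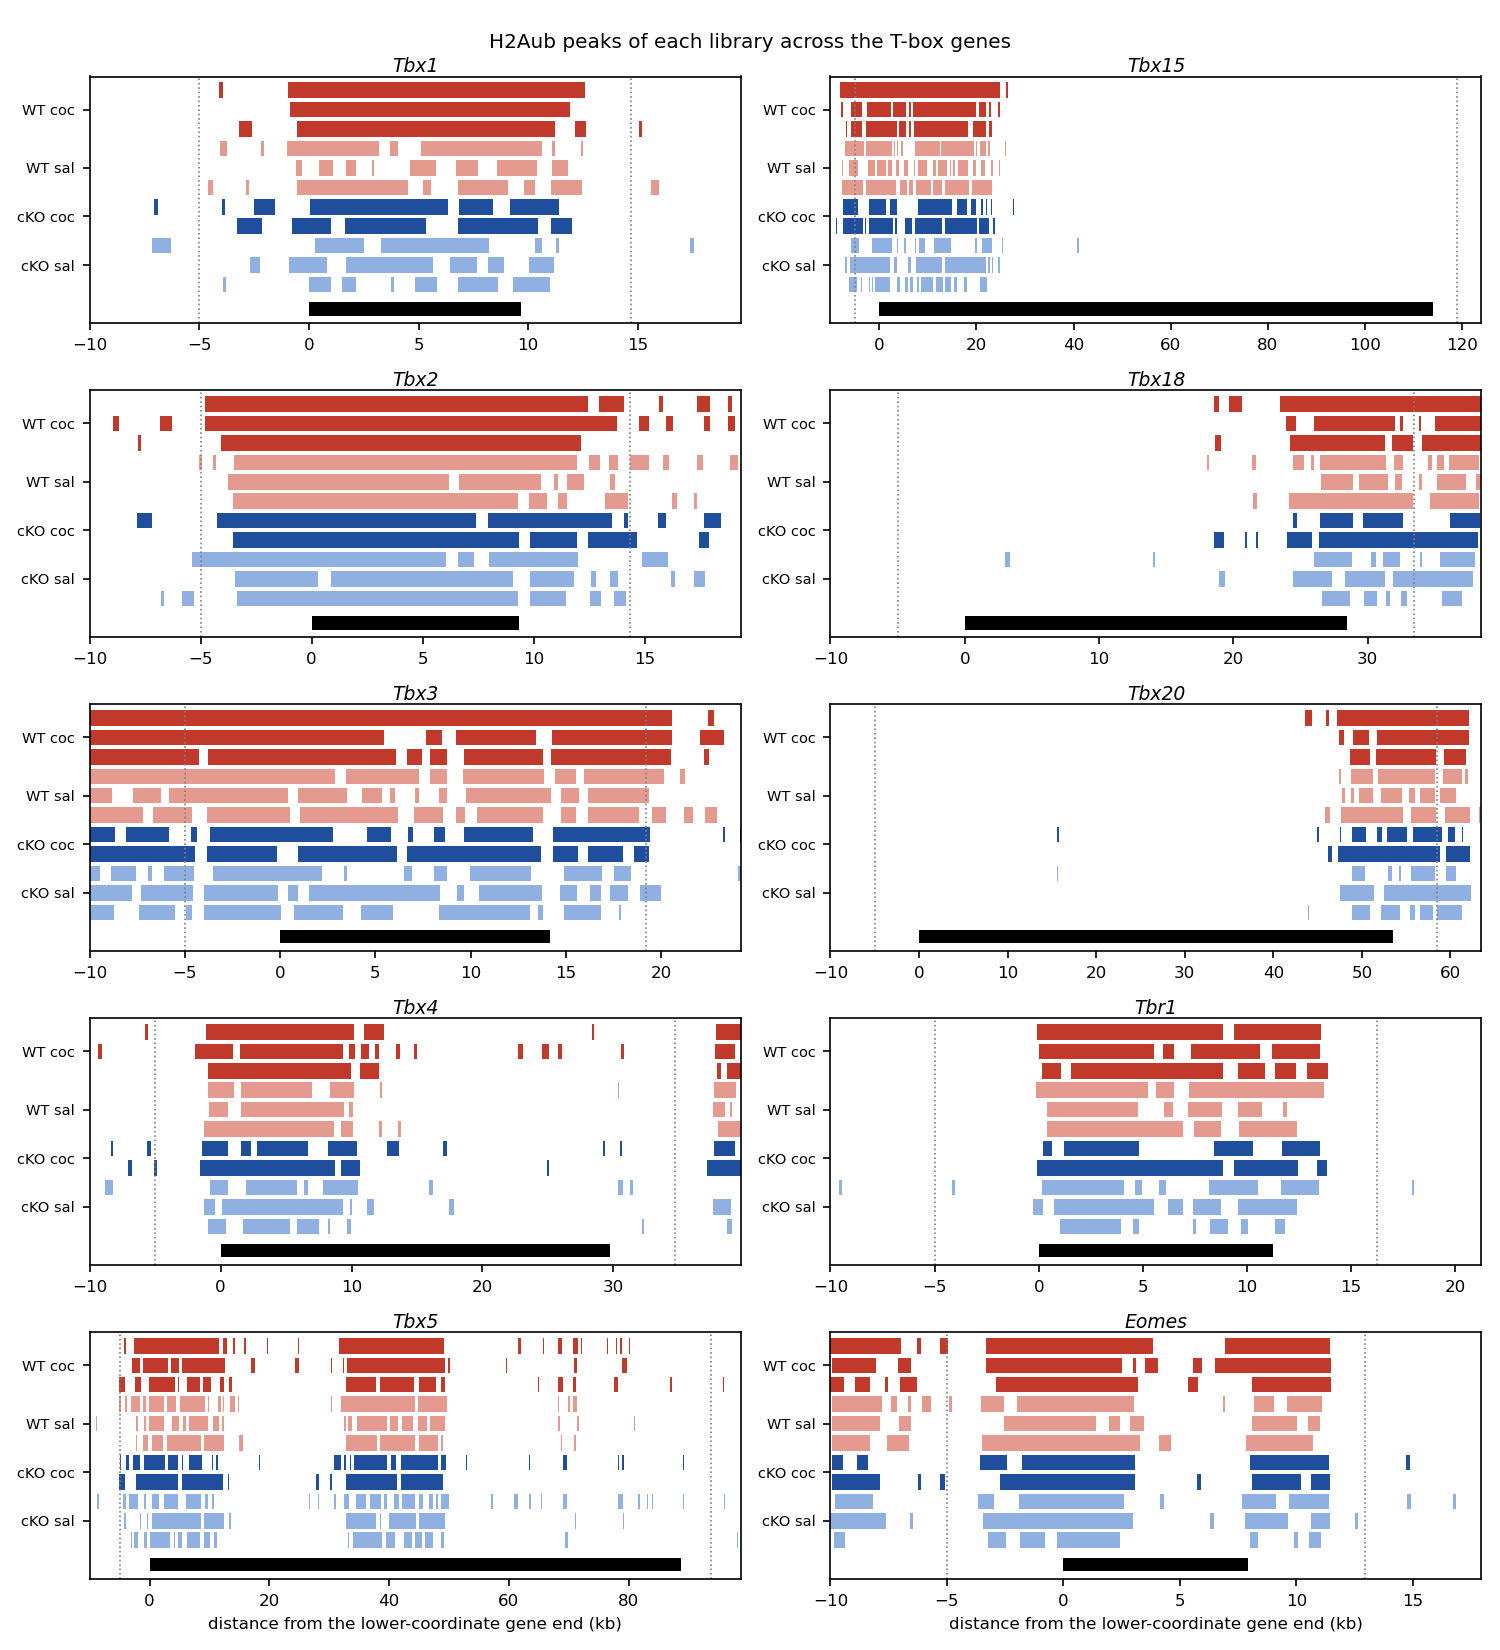
Peaks of each library (rows, coloured by group: red WT cocaine, light red WT saline, blue cKO cocaine, light blue cKO saline) across the 10 genes, with distance from the lower-coordinate gene end in kb. The black bar is the gene body and the dotted lines mark the 5 kb flanks. In most libraries the peaks lie at both gene ends of the 5 short genes and at 1 end of the 5 long ones, and those of Tbx1 and Tbx2 are least broken up in WT cocaine.

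Some of these genes are linked. Tbx2 and Tbx4 lie 44.4 kb apart on chromosome 11, and Tbx3 and Tbx5 111.8 kb apart on chromosome 5. The mark did not bridge either pair. Of the bases between the Tbx2 and Tbx4 windows, 0 to 6.19% were covered in a library (median 3.48%), and of those between the Tbx3 and Tbx5 windows 2.35 to 11.7% (median 4.98%).

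The peaks of the T-box genes were wide for their lists. In each library the widest peak of Tbx2 was among the 91 widest of its list, and in cKO saline replicate 3 it had rank 2. The widest peak of Tbx3 ranked between 6 and 204, that of Tbx15 between 9 and 523 and that of Tbx1 between 45 and 634. The median fold enrichment over input of the peaks in the 10 windows was 3.47 to 4.44 in a library and lay above the median of the whole list, 3.10 to 4.02, in 11 of 11 libraries. The highest fold enrichment of any peak in the 10 windows was 4.90 to 5.78 in 9 of the libraries, whose highest fold anywhere was 5.98 to 12.2.

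The other 2 libraries, cKO cocaine replicate 1 and cKO saline replicate 1, stood apart. Their lists held 54653 and 80713 peaks, against 7271 to 26055 in the others, and their highest fold enrichment in a T-box window was 12.7 and 18.8. The covered length summed over the 10 windows was nevertheless 131 kb and 111 kb there, within the range of the other 9 libraries (99.97 to 185 kb). The T-box windows therefore made up 0.615% and 0.404% of the list length in these libraries and 1.07 to 2.36% in the others. The lists give no read counts, and the study's methods state only a minimum for all samples, so the depth behind each list is unknown, and a longer list from deeper sequencing cannot be told apart from more marked chromatin. For the 5 kb flanks and unscaled values, counts of genes without overlap in the cKO groups are given with and without them.

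The first comparison asks whether chronic cocaine changed the mark in WT thalamus. All 10 genes had a higher mean covered length in WT cocaine than in WT saline, by 1.13 to 1.46 times, and summed over the 10 windows it was 167 kb ± 15.7 (SD, n = 3) against 137 kb ± 19.4 (n = 3). The lists themselves were 1.70 times as long after cocaine, and per Mb of list all 10 genes were lower, not higher, in WT cocaine. On that scale none of the 10 was higher without overlap, against 7.55% of the genes tested, and 2 were lower, against 2.48%. The median ratio over the 10 genes was 1.23, against 1.63 over the 1479 genes with a peak in every library, of which 95.6% had a ratio above 1. Covered length cannot exceed the window. From their saline means, Tbx2 and Tbx3 could not have passed a ratio of 1.25, so their place below 1.63 was fixed by the window, while the other 8 genes could have reached 2.05 times or more.

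At Tbx1, covered length was 13.7, 12.8 and 12.9 kb in the WT cocaine libraries and 10.8, 6.15 and 10.0 kb in the WT saline libraries. At Tbx4 it was 12.9, 14.1 and 12.4 kb against 9.49, 9.64 and 11.3 kb. At these 2 genes the groups did not overlap, and every cocaine library was above every saline library. Groups did not overlap in this direction at 15.5% of the 8200 genes tested, and at 33.3% of the genes with a peak in every library, so 2 of 10 is not above the background. The exact two-sided permutation test gave p = 0.10 for both genes, the smallest value that 3 against 3 libraries allow, and 0.63 after Benjamini-Hochberg adjustment over all genes tested. At the other 8 genes the groups overlapped and the exact permutation p was between 0.20 and 0.60.

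**Figure D4:**
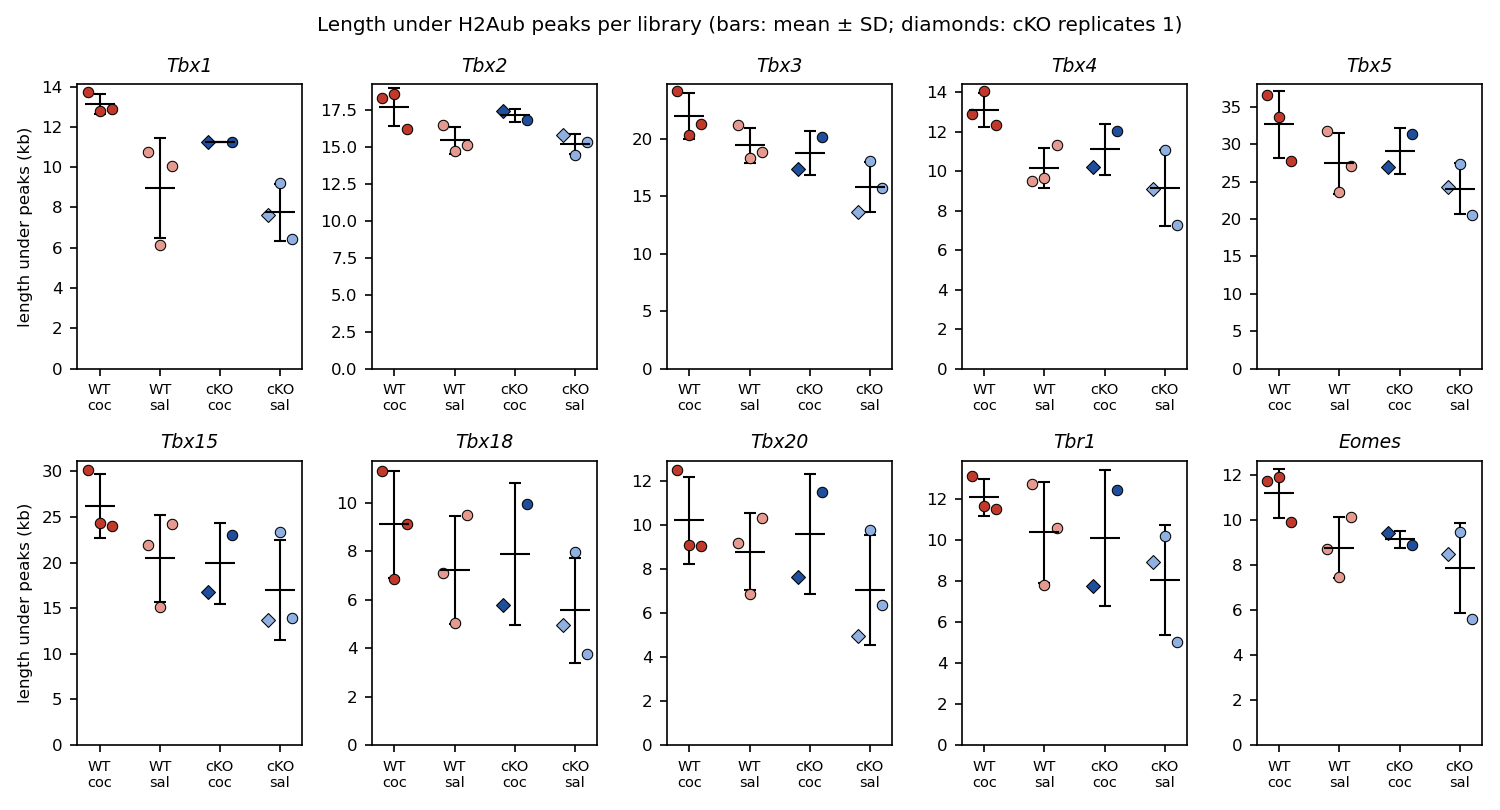
Covered length (kb, axis from 0) at each of the 10 genes in the 4 groups. Points are libraries, the horizontal bar and whiskers give the mean ± SD, and diamonds mark the cKO replicates 1. Means are higher after cocaine than after saline in both genotypes at all 10 genes, but at most of them the points of the groups overlap.

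The clearest contrast at Tbx1 was in how the mark was broken up. The widest Tbx1 peak was 13540, 12796 and 11812 bp in the WT cocaine libraries and 5531, 1790 and 5055 bp in the WT saline libraries. The window held 2, 1 and 3 peaks after cocaine and 7, 8 and 7 after saline. A single peak thus spanned most of the gene in each WT cocaine library, where the same stretch was split in each WT saline library. At Tbx2, where 1 peak also spanned the gene body in WT saline replicate 1, the groups did not overlap either, with widest peaks of 17216, 18574 and 16245 bp against 15421, 9970 and 12864 bp, and 2, 1 and 1 peaks against 5, 5 and 4.

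Tbx15 also had non-overlapping groups for the widest peak, with 32771, 13014 and 11005 bp after cocaine and 6662, 2007 and 6294 bp after saline. Its mean was 3.80 times higher, but the difference between the cocaine libraries was itself large. At Tbx3 the widest peaks of 35582, 20151 and 10064 bp after cocaine overlapped those of 13761, 6266 and 5157 bp after saline. Within the window alone they did not, with 24191, 10430 and 9887 bp against 7883, 5426 and 5157 bp. No share over all genes was computed for this in-window measure. Taken as a whole peak, the widest peak was larger without overlap at 3 of 10 genes (Tbx1, Tbx2 and Tbx15). This was so at 15.8% of the 8200 genes tested and 34.1% of those with a peak in every library as well. The median ratio of the widest peak over the 10 genes was 1.70, against 1.75 over the genes with a peak in every library.

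Fewer peaks without overlap were found in WT cocaine at Tbx1 and Tbx2, and at 0.78% of the genes tested or 3.45% of those with a peak in every library. A gene with few peaks has little room to lose any. The genes behind these shares were not matched for peak number, so the shares are not a like background. The mean number of peaks was 0.27 times that of saline at Tbx1 and 0.29 times at Tbx2, and the median ratio over the 10 genes was 0.73, where that of the genes with a peak in every library was 1.11. The exact permutation p was again 0.10 for both genes, and 1 after adjustment. Peak number and widest peak were chosen as measures after the values had been seen.

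In Maged1-cKO thalamus the same question gave means in the same direction. All 10 genes had a higher mean covered length in cKO cocaine than in cKO saline, by 1.13 to 1.45 times, with sums of 144 kb ± 18.97 (n = 2) and 117 kb ± 21.2 (n = 3). The lists were 1.23 times as long after cocaine and the T-box sum was 1.23 times as large. Per Mb of list, all 10 genes were lower in cKO cocaine, and none was higher without overlap, against 5.18% of the genes tested.

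The groups did not overlap at 2 of 10 genes, Tbx1 and Tbx2, against 3.9% of the 14139 genes tested and 15.6% of the genes with a peak in every library. Covered length at Tbx1 was 11.2 and 11.2 kb in the cKO cocaine libraries and 7.63, 9.23 and 6.41 kb in the cKO saline libraries. At Tbx2 it was 17.4 and 16.9 kb against 15.8, 14.5 and 15.3 kb. The cocaine libraries were above every saline library at both genes, and the exact permutation p was 0.20 for Tbx1 and 0.10 for Tbx2, with 1 for both after adjustment. At the other 8 genes the groups overlapped.

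This comparison holds both of the libraries that stood apart, 1 in each group. Without them, 1 cocaine library and 2 saline libraries remained, the lists differed by 1.86 times, and 8 of 10 genes were higher without overlap, as were 78.1% of the genes with a peak in every library. The median ratio over the 10 genes was then 1.31, against 1.70 for those genes. When each list was cut to the same number of peaks, the difference of the T-box sum turned to -7235 bp, so that this sum was lower in cKO cocaine.

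The number of peaks was lower in cKO cocaine without overlap at 3 of 10 genes, Tbx3, Tbr1 and Eomes, and at 0.127% of the genes tested. Tbr1 had 4 and 3 peaks in the cocaine libraries and 6, 5 and 6 in the saline libraries. Eomes had 3 and 4 against 5, 5 and 6, and Tbx3 7 and 7 against 8, 10 and 8. The counts differed by at least 1 peak between any pair of libraries from the different groups, and the exact permutation p was 0.10, 0.10 and 0.30 for Tbr1, Eomes and Tbx3. Of the genes with a peak in every library, 1.08% had fewer peaks without overlap. The genes behind these shares were again not matched for peak number, so the shares are not a like background. None of the 10 genes had non-overlapping groups for the widest peak, which was larger without overlap at 5.83% of the genes tested and 20.4% of those with a peak in every library. Counting only the part inside the window, Tbx18 was larger without overlap, with 3043 and 7081 bp against 2804, 3000 and 2085 bp. The groups were only just apart, and no share over all genes was computed for this in-window measure.

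Without the libraries that stood apart, both measures gave other counts. The number of peaks was then lower in cKO cocaine at 7 of 10 genes (Tbx1, Tbx2, Tbx3, Tbx4, Tbx5, Tbr1 and Eomes) and at 10.7% of the genes with a peak in every library, and it was higher at Tbx18, as at 45.4% of them. The widest peak was larger at 7 of 10 genes (Tbx2, Tbx3, Tbx4, Tbx5, Tbx18, Tbx20 and Tbr1) and at 65% of those genes.

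The next comparison asks whether the mark differed between genotypes without cocaine. All 10 genes had a lower mean covered length in cKO saline than in WT saline, from 0.77 times at Tbx18 to 0.98 times at Tbx2, although the cKO saline lists were 1.57 times as long on average. The median ratio over the 10 genes was 0.85, against 1.04 over the genes with a peak in every library. Without the replicates 1 of the cKO groups the lists were 0.71 times as long, and the medians were 0.87 and 0.74.

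Tbx3 was the only one of the 10 genes whose groups did not overlap. Its covered length was 13.7, 18.0 and 15.7 kb in the cKO saline libraries and 21.2, 18.3 and 18.8 kb in the WT saline libraries. The highest cKO library was thus just below the lowest WT library. Groups did not overlap in this direction at 0.607% of the 13344 genes tested and at 3.38% of the genes with a peak in every library, and the exact permutation p was 0.10 (1 after adjustment). Without cKO saline replicate 1, Tbx3 was again the only one of the 10, and the share among the genes with a peak in every library was 20.7%. With the gene body alone, or with flanks of 10 kb, the Tbx3 groups overlapped. Per Mb of list none of the 10 genes was lower without overlap, against 2.07% of the genes tested.

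The last comparison asks whether the genotypes differed after cocaine. All 10 genes had a lower mean covered length in cKO cocaine than in WT cocaine, from 0.76 times at Tbx15 to 0.97 times at Tbx2, with sums of 144 and 167 kb. The lists were 1.14 times as long in cKO cocaine. The median ratio over the 10 genes was 0.86, against 0.91 over the genes with a peak in every library. Without cKO cocaine replicate 1 the relation turned, with medians of 0.93 and 0.81 and cKO lists 0.78 times as long.

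The groups did not overlap at 5 of 10 genes, Tbx1, Tbx3, Tbx4, Tbx15 and Eomes, all lower in cKO cocaine. In this direction 3.25% of the 11926 genes tested and 12.8% of the genes with a peak in every library did not overlap. Per Mb of list none of the 10 genes was lower without overlap, against 4.93% of the genes tested, and with flanks of 10 kb 3 were, against 2.89%. The cKO cocaine and WT cocaine libraries had 16.8 and 23.1 kb against 30.2, 24.3 and 23.985 kb at Tbx15. They had 9.39 and 8.87 kb against 11.7, 11.9 and 9.90 kb at Eomes.

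Both cKO libraries were below every WT library at these genes, but the gap between the groups was smaller than the SD of WT cocaine at Tbx3 (203 bp), Tbx4 (333 bp), Tbx15 (911 bp) and Eomes (501 bp). At Tbx3, cKO cocaine libraries had 17.4 and 20.1 kb and WT cocaine libraries 24.2, 20.3 and 21.3 kb, and at Tbx4 10.2 and 12.03 kb against 12.9, 14.1 and 12.4 kb. At Tbx1 the 11.2 kb of both cKO libraries lay below the 12.8 to 13.7 kb of the WT libraries. The exact permutation p was 0.10 for Tbx1, Tbx4 and Tbx15 and 0.20 for Tbx3 and Eomes, and 0.68 for each after adjustment. Without cKO cocaine replicate 1 the same 5 genes did not overlap, as did 42.9% of the genes with a peak in every library, so that the share at the T-box genes was then near the background. Tbx18, Tbx20 and Tbr1 were higher, not lower, in the remaining cKO library.

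The breaking up of the domains differed between these groups too. The widest peak was smaller without overlap in cKO cocaine at 5 of 10 genes, Tbx1, Tbx2, Tbx3, Tbx15 and Eomes, at 4.53% of the genes tested and at 16.7% of those with a peak in every library. At Tbx1 it was 6290 and 3725 bp against 13540, 12796 and 11812 bp, and at Tbx3 6498 and 7029 bp against 35582, 20151 and 10064 bp. These are widths of whole peaks, and the Tbx3 peak of WT cocaine replicate 3 lay mostly outside the window. Counting only the part of a peak inside the window, the widest at Tbx3 was 24191, 10430 and 9887 bp in the WT cocaine libraries, and the same 5 genes had groups without overlap. No share over all genes was computed for this measure. At Tbx2 the widest peak was 11664 and 12850 bp, against 17216, 18574 and 16245 bp. At Eomes it was 4818 and 5802 bp against 7170, 5823 and 6104 bp, so there the groups were only just apart. The number of peaks was higher without overlap at 4 of 10 genes (Tbx1, Tbx2, Tbx3 and Tbx15), with 5 and 5 at Tbx1 and 3 and 3 at Tbx2, at 5.43% of the genes tested and at 6.63% of those with a peak in every library. Without cKO cocaine replicate 1, the widest peak was smaller at the same 5 genes and at 40.4% of the genes with a peak in every library, so that the T-box share was near the background, and it was larger at Tbr1, as at 10.1% of these genes. The number of peaks was then higher at 5 of 10 genes (Tbx18 in addition), against 13.5%, and lower at Tbx5, against 17.5%. This comparison and that of cocaine with saline in WT share the WT cocaine libraries, so their results at the same genes are not independent.

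**Figure D5:**
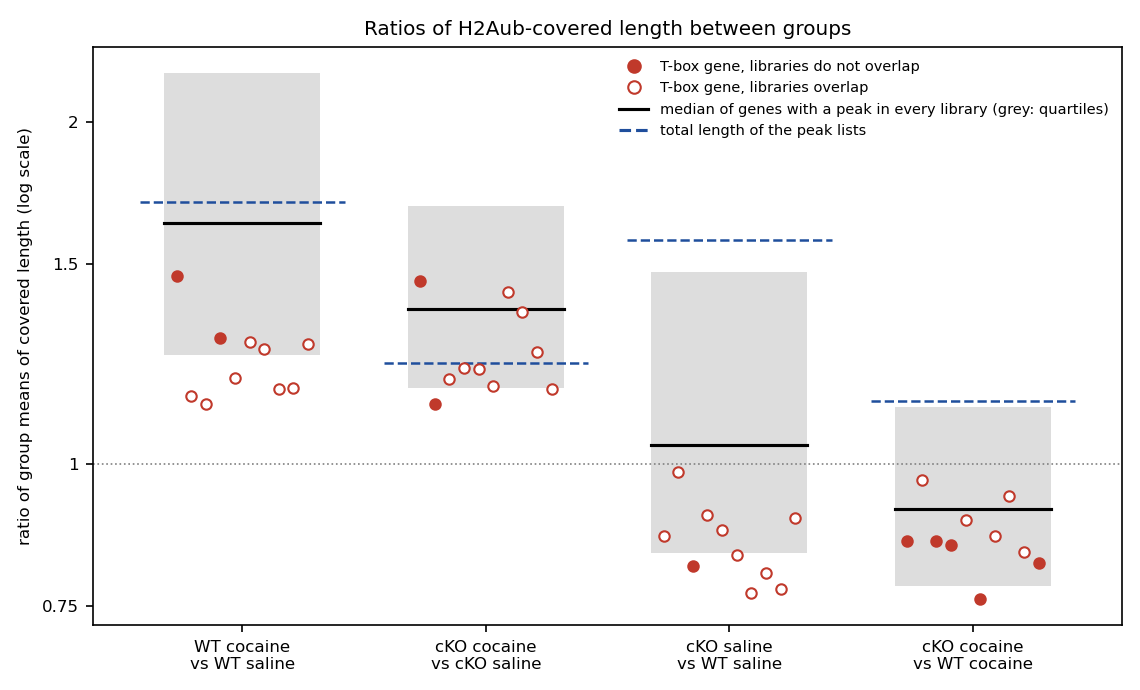
Ratio of the group means of covered length (log scale) for the 4 comparisons. Red circles are the 10 genes, filled where the libraries of the groups did not overlap, the black line and grey box are the median and quartiles of the 1479 genes with a peak in every library, and the dashed line is the ratio of the list lengths. All 10 circles lie above 1 for cocaine against saline and below 1 for cKO against WT, and in WT cocaine against WT saline all 10 lie below the median of those genes, where Tbx2 and Tbx3 could not have passed 1.25.

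A last test, which permuted the treatment labels inside each genotype, asked whether the cocaine effect itself was unlike in WT and cKO. The cocaine effect on the T-box sum in cKO minus that in WT was -3708 bp, and the sign of this value turned when single libraries were left out. For the 10 genes the exact permutation p was between 0.61 and 0.985, and 1 after adjustment over 14474 genes. At p under 0.05 without adjustment, 0.173% of the genes tested passed, none of them a T-box gene of the 10, and no gene passed after adjustment. The effect was larger in cKO at 4 genes, Tbx3, Tbx18, Tbx20 and Tbr1, and larger in WT at 6. A difference of the cocaine effect at the T-box genes was therefore not detectable with these libraries.

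At the level of single bases, few positions separated the groups. Of the 202573 bp covered in any WT library, 1.37% were covered in all 3 WT cocaine libraries and in none of the WT saline libraries, and 0% the other way round. Over all bases under WT peaks these shares were 1.8% and 0.0649%, so that the T-box bases did not exceed the background. In cKO mice 2.33% of the T-box bases were covered in both cocaine and no saline libraries and 0.011% in the opposite arrangement, against 1.36% and 0.0411% over all bases. In WT the longest cocaine-only stretch was 403 bp beyond the higher-coordinate end of Tbx1 (chr16:18591630-18592032), inside the long non-coding RNA gene Gm35369. In cKO it was 429 bp beyond the higher-coordinate end of Tbx2 (chr11:85845650-85846078). Between the genotypes after cocaine, 2.38% of the covered bases were found in all WT cocaine and no cKO cocaine libraries and 0.341% in the opposite arrangement, against 1.31% and 0.896% over all bases under the peaks of these libraries. The largest number of the bases in all WT cocaine and no cKO cocaine libraries, 2018 bp, lay at Tbx15. In the comparisons with cKO libraries, the shares over all bases include the long lists of the cKO replicates 1. No share without these lists is given.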

How the data were processed

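H2Aub peak lists of 11 ChIPmentation libraries were analysed, and the 4 total input libraries were not used here. According to the study's methods and the submitters' processing notes, reads had been trimmed with Cutadapt and aligned to mm10 by Bowtie2 2.3.4.1. The authors used MACS2 2.1.1.20160309.3 in broad mode, with input as control, on each library separately. Each deposited list gave peak starts and ends, a score, a fold enrichment over input (a linear ratio), and the −log10 p-value and −log10 q-value of the peak. The highest q-value in a deposited list was 0.0997, and all peaks were used, so that peaks beyond the false discovery rate of 0.05 stated in the study's methods are included. The methods give a minimum number of reads for all samples, but the lists hold no read counts, so the depth of each is unknown and no counting interval could be computed.

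Gene bounds came from the RefSeq table for GRCm38.p6, which uses mm10 coordinates. Covered length was the union of peak bases in each window. Group means were compared by exact two-sided permutation tests over libraries, with Benjamini-Hochberg adjustment over all protein-coding genes with a peak in a library compared. Since 3 against 3 or 2 against 3 libraries cannot give a p below 0.10, genes whose groups did not overlap were counted, beside the share of all genes tested. The difference of the cocaine effects was tested over 200 arrangements of treatment within genotype. Replicates are separate pooled samples, which the study's methods call independent biological replicates from a small number of batches. The sources used here do not tie libraries to batches, and p-values measure only the spread between these libraries. Named genes were the 10 members, the 7 other T-box genes and the 5 genes of most similar pattern over the libraries. The members and lists were chosen with earlier results of these data known. Widest peak (whole or within the window), peak number and the set of genes with a peak in every library were added after seeing the data. The steps were tested on simulated data. Python 3.11.15 (numpy 2.4.6, pandas 2.3.3) and limma 3.58.1 in R 4.3.3 were used. Alternatives were stricter q-values, equal list lengths, other windows, scaling by list length, a replicate block, leaving out libraries, and limma on log2(covered bp + 200).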

Additional observations from a re-analysis of the deposited data

How the results depend on the processing

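The depth of each list is unknown, groups hold 2 or 3 libraries, and no permutation test between 2 groups could pass p under 0.05. Of the differences between groups of the 10 genes, 271 of 350 values under settings other than leaving out 1 library kept their direction and overlap, and 175 of 220 did when 1 library was left out. The cause of the changes was not tested.

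Per Mb of list, the difference of the T-box sum turned to -5054 bp per Mb between cocaine and saline in WT and to -5143 in cKO. In WT the genes turned to -126 (Tbx1), -692 (Tbx2), -875 (Tbx3), -354 (Tbx4), -1094 (Tbx5), -633 (Tbx15), -229 (Tbx18), -362 (Tbx20), -388 (Tbr1) and -301 (Eomes). In cKO they turned to -225 (Tbx1), -853 (Tbx2), -864 (Tbx3), -379 (Tbx4), -1046 (Tbx5), -842 (Tbx15), -115 (Tbx18), -286 (Tbx20), -202 (Tbr1) and -331 (Eomes). Tbx2 turned to 44.4 between cKO saline and WT saline. Genes without overlap then numbered 822 instead of 1296 for cocaine in WT and 399 instead of 153 between genotypes after saline, and 108 instead of 25 genes had an interaction p under 0.05. The share of higher among these calls went from 1272 of 1296 to 619 of 822 in WT.

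With the same 7271 peaks in each list, 34 instead of 40 calls of a gene as H2Aub+ in a group remained, and the cocaine difference in cKO turned to -7235 bp for the sum, and to -1226 (Tbx1), -5193 (Tbx2), -1003 (Tbx3), -413 (Tbx5), -1474 (Tbx15) and -205 bp (Eomes). The sum differed between genotypes by -45615 bp after saline and -80027 bp after cocaine, instead of -19630 and -23338, and between the cocaine effects by -34412 instead of -3708. Genes without overlap were 717 for cocaine in WT, 192 instead of 562 in cKO and 402 between genotypes after saline, and 116 had an interaction p under 0.05. With q at most 0.05 the T-box sums kept their direction, with differences of 29743 bp for cocaine in WT, 28687 in cKO, -22413 and -23469 between genotypes after saline and cocaine, and -1056 between the cocaine effects. With q at most 0.01, genes without overlap were 526 for cocaine in WT, 220 in cKO, 68 between genotypes after saline and 492 instead of 1175 after cocaine, 6 had an interaction p under 0.05, and the difference of the cocaine effects was 7180 bp.

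Without the replicates 1 of both cKO groups, genes without overlap were 4023 for cocaine in cKO, 783 between genotypes after saline and 2984 after cocaine, 52 had an interaction p under 0.05, and the difference of the cocaine effects was 6676 bp. Tbx18, Tbx20 and Tbr1 turned to 845, 1295 and 365 bp between genotypes after cocaine, as they did without cKO cocaine replicate 1 alone. Tbx20 also turned without WT cocaine replicate 1 (508 bp), Tbx2 between genotypes after saline without WT saline replicate 1 (246 bp) or cKO saline replicate 2 (93.0 bp), and Eomes without cKO saline replicate 3 (213 bp). Without cKO cocaine replicate 2, Tbx15 and Tbr1 turned to -236 and -299 bp for cocaine in cKO. The other ends of these ranges were -3310 (Tbx18), -2573 (Tbx20) and -4329 (Tbr1) between genotypes after cocaine, -616 (Tbx2) and -1712 (Eomes) after saline, and 6109 (Tbx15) and 4395 (Tbr1) for cocaine in cKO. Leaving out each library in turn gave sums from 19071 to 36878 bp for cocaine in WT, 13157 to 39986 in cKO, -31401 to -10889 between genotypes after saline, -36752 to -9923 after cocaine and -17123 to 9706 for the difference of the effects. The last was positive when WT cocaine replicate 1 (4950) was left out, and likewise for replicate 2 of WT saline (7501), replicate 1 of cKO cocaine (9706) and replicate 2 of cKO saline (8063). Genes without overlap ranged from 1548 to 2568, 790 to 4691, 282 to 958 and 1717 to 8768, in the same order, and those with an interaction p under 0.05 from 13 to 57.

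On log2(covered bp + 200), limma called 0 genes in each of the 4 comparisons and 0 for the interaction at an adjusted p under 0.05, with 582, 303, 196, 370 and 146 at an unadjusted p under 0.05. None of the 10 genes was among those. The replicate numbers were not taken as pairs. This rested on correlations of libraries over the 1479 genes with a peak in every library, after each group's mean had been removed. For same-numbered libraries they were 0.097, 0.035 and -1.2e-05 in WT. They were 0.637 and 0.486 in cKO, where both replicates 1 stand apart, 0.373, -0.024 and -0.045 between genotypes after saline, and -0.045 and -0.208 after cocaine. For libraries of unlike number they ranged from -0.182 to 0.135 in WT and from -0.637 to 0.312 in cKO. The 2 cKO cocaine libraries mirror each other about their mean, so their values are not independent. With the replicate block, the T-box sum differed by 30280 bp for cocaine in WT, 17831 in cKO, -19630 and -29936 between genotypes after saline and cocaine, and -12449 between the effects, all in the same direction, and 11 more differences of single genes had all pairs on 1 side.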

Other observations

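Tbxt, which encodes the mesoderm regulator Brachyury, was not among the 10 genes and was singled out after its values had been seen. Its covered length was 5286, 5395 and 4482 bp after cocaine and 3429, 3176 and 3170 bp after saline in WT mice. In cKO mice it was 1969 and 3677 bp after cocaine and 2751, 1184 and 943 bp after saline. WT cocaine lay above both WT saline and cKO cocaine without overlap, and cKO saline lay below WT saline without overlap. The shares of all genes tested without overlap in these directions were 15.5%, 3.25% and 0.607%, and those of the genes with a peak in every library 33.3%, 12.8% and 3.38%. Without the replicates 1 of the cKO groups the last of these shares were 42.9% and 20.7%. Per Mb of list the mean was lower in WT cocaine than in WT saline (366 and 419 bp), and the groups overlapped except between cKO saline and WT saline. The mean was 1.55 times that of WT saline in WT cocaine, 0.56 times that of WT cocaine in cKO cocaine and 0.50 times that of WT saline in cKO saline, with an exact permutation p of 0.10 for each. After adjustment over all genes tested these became 0.63, 0.68 and 1. The predicted gene LOC115486424 overlaps the Tbxt body, and the shared bases cannot be assigned.

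The protein-coding genes outside the family whose covered length per Mb of list was most like the T-box sum over the 11 libraries were Pou4f1, Hoxc10, Hoxa3, Foxc2 and Hmx3. Their Pearson correlation with it was 0.997 for the first and 0.995 for the last, against a median of -0.22 over 4620 candidate genes with a peak in at least 6 libraries. All of them had a peak in all 11 libraries. The values share the list length as their divisor, and the libraries are few, so the correlation is a description only.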
